A study of Homo sapiens with 25 samples.

Results

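The genes described here are the cadherins and the protocadherins that lie outside the protocadherin clusters. They were chosen by name, as autosomal protein-coding genes whose symbol is CDH or PCDH followed by digits only, which gave 33 of 19111 autosomal protein-coding genes of GENCODE release 44, 23 of them cadherins and 10 protocadherins. Each gene was read by the start of its Ensembl canonical transcript on hg38. The cells were of the line MDA-MB-231, which was derived from a human breast tumour, lacks hormone receptors and has mesenchymal features, and chromatin immunoprecipitation followed by sequencing was the assay. The tested cells carried a lentiviral short hairpin RNA against PML, which builds the PML nuclear bodies, and the control cells are labelled only as control. LMNB1 (lamin B1 of the nuclear lamina), H3K9me3, H3K4me3 and H3K27ac had 2 libraries each in PML knockdown and in control cells, and PML itself had 3 libraries whose titles name no condition. Of the 9 lists, 5 give broad domains, namely those of PML and, for knockdown and control cells apart, of LMNB1 and H3K9me3. The other 4 give the H3K4me3 and the H3K27ac peaks of each condition.

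No list separates the replicates and depth is not known, so differences between the conditions carry no replicate check and no test was run. Absence from a list means only that the authors' threshold was not passed. The PML gene itself had an H3K4me3 promoter peak with a fold enrichment of 58.3 (rank 92.7% from the bottom of the list) in the knockdown and 21.9 (rank 79.9%) in the control list, and an H3K27ac peak in both; these lists do not measure PML RNA or protein. All 6 mesenchymal markers examined (VIM, CD44, CAV1, AXL, TGFBI and ANXA1) carried an H3K4me3 promoter peak in both lists. Of 7 luminal markers, 6 did so in the knockdown and 5 in the control list, and GATA3 did in neither. Of 6 markers of other cell types, COL1A1 alone did.

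Cadherins are calcium-dependent adhesion proteins of the cell surface. Classical cadherins bind their like on the neighbouring cell and are anchored to actin through catenins, whereas protocadherins lack the catenin-binding tail and act mainly in the nervous system. Exchange of epithelial cadherin (CDH1) for neural cadherin (CDH2) is a hallmark of epithelial-mesenchymal transition, and MDA-MB-231 cells are known for lacking the CDH1 protein. H3K4me3 marks promoters that are active or poised, H3K27ac marks active promoters and enhancers, H3K9me3 marks constitutive heterochromatin, and LMNB1 domains mark chromatin at the nuclear periphery.

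Of the family, 18 of 33 genes (54.5%) started inside a PML domain, against 13.7% of all autosomal genes. They comprised 13 cadherins and 5 protocadherins. Members inside LMNB1 domains numbered 17 in knockdown and 15 in control cells, beside 11.4% and 12.9% of all genes. Inside H3K9me3 domains there were 5 members in the knockdown and 7 in the control list, beside 8.72% and 10.4% of all genes. Promoter peaks, counted within 1 kb of the start, were less frequent than in the genome at large. H3K4me3 was found at 13 members in the knockdown and 12 in the control list, where 64.4% and 62.5% of all genes had a peak. H3K27ac was found at 5 members in the knockdown and 4 in the control list, where 54.3% and 51.4% of all genes did. In sum, 22 members started in a domain of at least 1 of the 5 domain lists and 11 in none. The same share over all genes was not computed, so this sum has no background beside it.

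**Figure D1:**
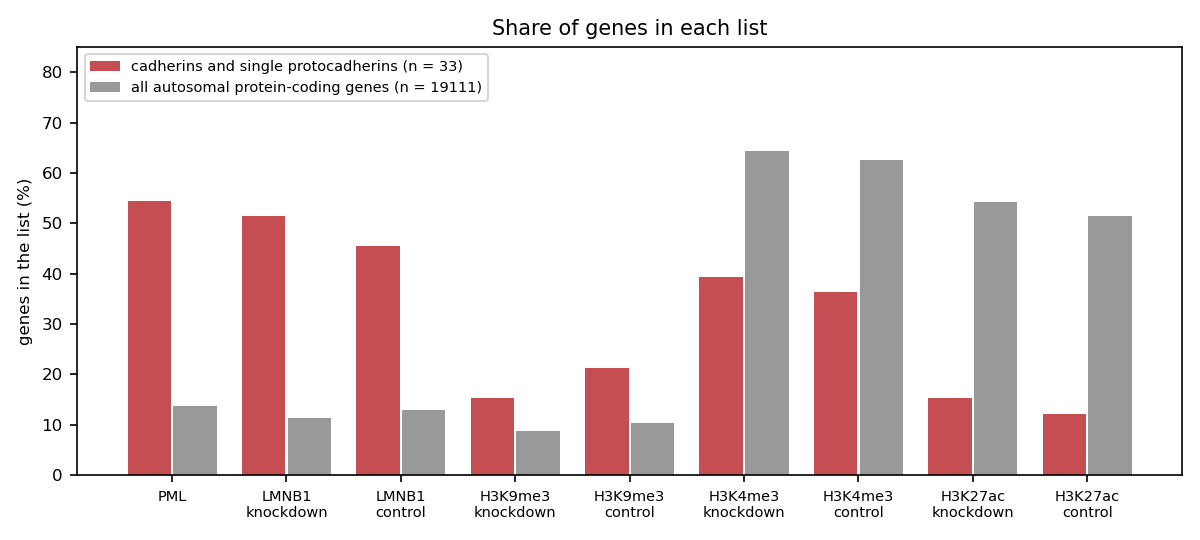
Share of genes found in each of the 9 lists (y axis, percent), for the 33 cadherins and single protocadherins (red, left of each pair) and for all 19111 autosomal protein-coding genes (grey, right). The family stands above all genes in the 5 domain lists and below them in the 4 peak lists; the bars are counts of 1 list each and have no error.

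The 18 starts are not 18 separate observations, because neighbouring members share domains. They lay in 9 PML domains, which held 53 gene starts in all, 35 of them of other genes. Here and below, other genes and gene starts mean those of protein-coding genes, and non-coding genes were not counted. The PML domain on chromosome 5 from 18558001 to 31266000 (12.7 Mb) held the starts of CDH18, CDH12, CDH10, CDH9 and CDH6, and its only other gene was PRDM9. The domain on chromosome 16 from 58797001 to 65916000 (7.12 Mb) held CDH8 and CDH11 and no other gene. CDH2 was the only gene starting in its domain on chromosome 18 (27360001 to 30951000), and PCDH7 the only gene in its domain on chromosome 4 (27387001 to 31815000). PCDH17, PCDH20 and PCDH9 shared the domain on chromosome 13 from 53415001 to 72549000, with 12 other genes. CDH7 and CDH19 shared a domain on chromosome 18 (64053001 to 69849000, 4 other genes), and CDH26 and CDH4 one on chromosome 20 (59022001 to 61272000, 8 other genes). CDH13 and PCDH15 lay singly in domains on chromosome 16 (81981001 to 83781000) and chromosome 10 (50715001 to 58050000).

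These members sat deep inside long domains. The PML domain around a member had a median length of 7227 kb, against 2700 kb for all genes that started in PML domains, and the median distance from the start to the nearest border was 2125 kb, against 493 kb. The whole gene body was inside for 15 of the 18. The exceptions were CDH13 (98.3% of the body inside), CDH6 (53.4%) and CDH4 (2.87%), whose start lay 19.7 kb inside the border. Of the 18, 13 had no other gene start within 500 kb on either side, a setting found for 189 of the 2612 genes that started in PML domains and for 321 of all genes (1.68%).

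**Figure D2:**
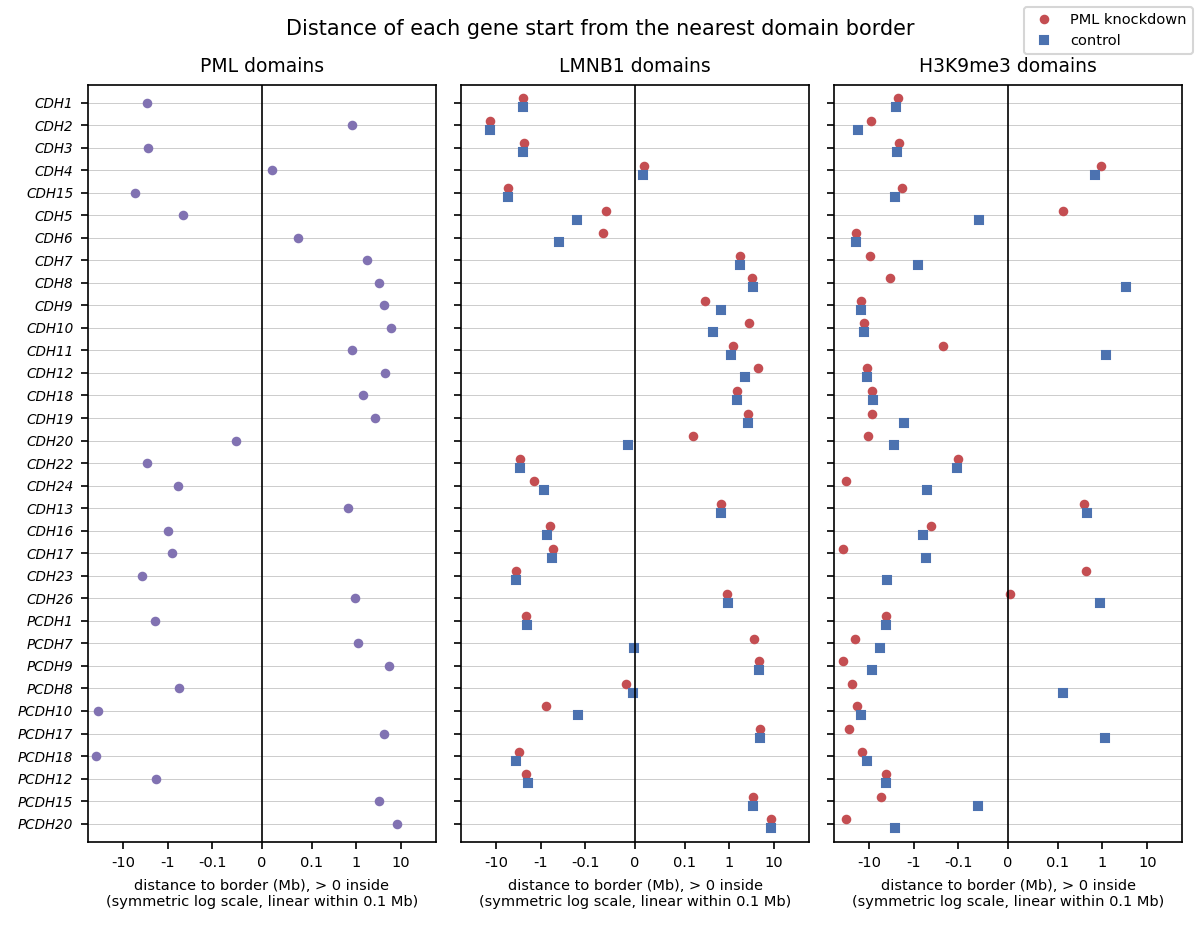
Distance of each member's start from the nearest border of a PML, LMNB1 or H3K9me3 domain (x axis, Mb, symmetric log scale, positive inside), with PML knockdown as red circles and control as blue squares; PML has no condition and is purple. PCDH7 in LMNB1 and CDH8, CDH11, PCDH8 and PCDH17 in H3K9me3 lie on opposite sides of 0 in knockdown and control cells, as do CDH20, CDH5 and CDH23.

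The family's genes were long, and those inside PML domains lay in AT-rich, gene-poor sequence. Median gene length was 135 kb for the 33 members and 27.9 kb for all autosomal genes, and 12 members were at least 200 kb long. Members inside PML domains had a median length of 243 kb, against 38.1 kb outside. The GC content of the 500 kb around the start had a median of 35.3% inside PML domains and 47.0% outside, with 44.2% for all genes. Other gene starts within 500 kb had a median of 0 inside PML domains and 13 outside, with 12 for all genes. All 2612 genes starting in PML domains had medians of 33.5 kb in length, 38.8% regional GC and 7 other gene starts. Position in a PML domain ran with base composition and length. Of the 18 members with regional GC under 40%, 15 started in PML domains, as did 43.3% of the 3884 genes in that GC range. At 40% or more, 3 of 15 members did (CDH13, CDH26 and CDH4), beside 6.11% of genes. Among genes of at least 200 kb, 10 of 12 members and 30.3% of all genes did, and with both limits applied 8 of 9 members and 49.0% of all genes. These cut-offs of 40% and 200 kb were chosen after the values were seen.

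The AT-rich members outside PML domains were CDH20, which lay 52.4 kb from the nearest PML domain, and PCDH10 and PCDH18. PCDH10 and PCDH18 lie on chromosome 4, where the nearest PML domains were 36.0 Mb and 40.4 Mb away. Of the 8 PML domains listed on that chromosome, 7 ended by position 47466000 and the eighth was a 486 kb domain starting at 96651001.

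**Figure D3:**
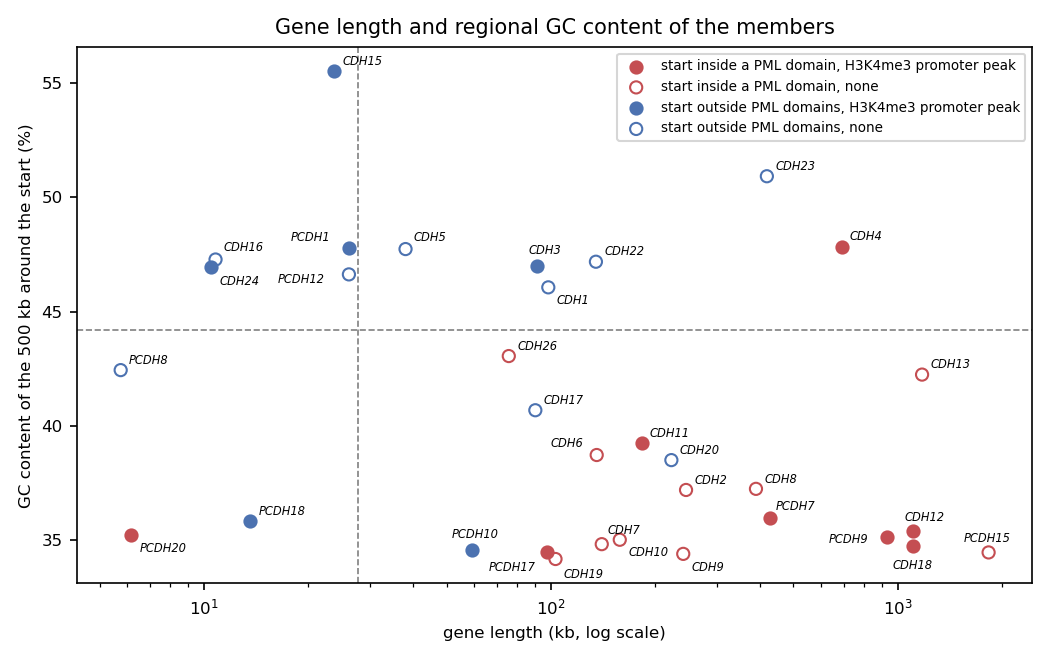
Gene length (x axis, kb, log scale) against the GC content of the 500 kb around the start (y axis, percent) for the 33 members; red points start inside PML domains and blue points outside, filled points had an H3K4me3 promoter peak in the knockdown or control list, and dashed lines are the medians of all autosomal genes. Red points gather at low GC and long genes, with CDH4, CDH13 and CDH26 above 40% GC.

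Among the type I classical cadherins, which include those exchanged in epithelial-mesenchymal transition, CDH1 was free of every domain and promoter mark examined. CDH1 (ENSG00000039068.20, start at 68737292 on chromosome 16, plus strand) started 2.82 Mb from the nearest PML domain. Its nearest LMNB1 domain was 2.43 Mb away in the knockdown and 2.52 Mb in the control list, and its nearest H3K9me3 domain 2.24 Mb and 2.43 Mb. Neither H3K4me3 nor H3K27ac had a peak within 1 kb of its canonical start in knockdown or control cells. The nearest H3K4me3 peak was 4.71 kb away in the knockdown and 91.1 kb in the control list, and 5 H3K27ac peaks in the knockdown and 4 in the control list overlapped the 98.2 kb gene body. When any annotated start was allowed, CDH1 had an H3K27ac promoter peak in both lists. CDH3, the placental cadherin gene, starts upstream of CDH1 on the same strand. It carried a weak H3K4me3 promoter peak, with a fold enrichment of 4.60 in the knockdown and 4.54 in the control list, which ranked 20.3% and 20.9% from the bottom of those lists. Fold enrichments were computed by the authors for each peak. They serve here only to place a peak within its own list, since the lists share no common scale. Over all promoters with an H3K4me3 peak, the median fold of the strongest peak was 35.4 in the knockdown and 18.5 in the control list. For H3K27ac the medians were 11.2 and 8.25.

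CDH2 (ENSG00000170558.10, chromosome 18, start at 28177130, minus strand) lay wholly inside a PML domain, 817 kb from the border. It was outside LMNB1 domains in both conditions, with the nearest 13.9 Mb away in the knockdown and 13.8 Mb in the control list. Its promoter had no peak of either mark in knockdown or control cells. CDH2 and the type II gene CDH6 were the only members in a PML domain and in neither LMNB1 list, while 16 of the 18 PML members were in the knockdown and 15 in the control LMNB1 list, beside 71.7% and 81.7% of all genes starting in PML domains. Of the same 18, 3 were in the knockdown and 6 in the control H3K9me3 list, beside 19.2% and 46.2%. CDH4, the retinal cadherin gene, was in all 5 domain lists at its start. That start was 17.7 kb inside the knockdown and 15.7 kb inside the control LMNB1 border. Both distances are less than the grids of 22 kb and 17 kb on which those borders lie. H3K9me3 domains held 100% of its 688 kb body in the knockdown and 96.4% in the control list, but LMNB1 domains only 2.58% and 2.29%. CDH4 had 2 H3K4me3 promoter peaks in the knockdown list (folds of 20.4 and 15.7, the stronger at rank 63.1%). The control list had 1 (fold 4.14, rank 17.1%). CDH15, the muscle cadherin gene, was in no domain list and had an H3K4me3 promoter peak (fold 7.95, 510 bp wide) in the knockdown list only.

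The type II classical cadherins, many of them expressed in neurons, made up 13 of the 33 members and 11 of the 22 found in a domain list. Of 13, 9 started in a PML domain, 9 in a knockdown LMNB1 domain and 8 in a control LMNB1 domain. Over all genes these shares were 13.7%, 11.4% and 12.9%. Neighbouring genes shared domains, so these starts are not separate observations. CDH7, CDH9, CDH10, CDH12, CDH18 and CDH19 were wholly inside PML and LMNB1 domains in both conditions and outside H3K9me3 domains in both. CDH8 and CDH11 were also wholly inside PML and LMNB1 domains, and wholly inside an H3K9me3 domain in the control list alone. CDH22 and CDH24 were in no domain list, CDH5 and CDH20 each entered a list only with the knockdown, and CDH6 was in the PML list alone.

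CDH11, the osteoblast cadherin gene of mesenchymal cells (ENSG00000140937.14, chromosome 16, start at 65122063, minus strand), carried both promoter marks in both conditions despite its place in a PML domain. In the knockdown list a single H3K4me3 peak of 7176 bp with a fold of 31.3 (rank 74.8%) spanned the start. In the control list 2 peaks of 3136 and 3894 bp had folds of 30.3 and 11.2, the stronger at rank 91.3%. H3K27ac followed the same layout, with 1 peak of 5427 bp (fold 10.4, rank 69.1%) in the knockdown list. The control list had 2 peaks of 2470 and 2311 bp (folds of 11.0 and 7.40, the stronger at rank 80.1%). CDH11 was the only cadherin with H3K27ac at the promoter in the control list, and CDH24 joined it in the knockdown list with peaks of low rank (folds of 4.45 and 2.44). CDH24 had 2 H3K4me3 promoter peaks in each list, with folds of 15.6 and 8.67 in the knockdown and 4.47 and 5.80 in the control list. The stronger peak ranked 56.9% from the bottom of the knockdown and 30.2% from the bottom of the control list.

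Weak H3K4me3 peaks were found at 2 of the chromosome 5 genes. CDH18 had a promoter peak in both lists (fold 7.82, 869 bp in the knockdown list, and fold 5.03, 678 bp in the control list). These ranked 39.4% and 24.9% from the bottom of their lists. CDH12 had one in the control list alone, 379 bp wide with a fold of 3.93 and a -log10 q of 3.19, at rank 15.0% from the bottom. The other type II genes, CDH5, CDH6, CDH7, CDH8, CDH9, CDH10, CDH19, CDH20 and CDH22, had no promoter peak in any of the 4 peak lists.

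Of the 5 remaining cadherins, CDH13 and CDH26 were in all 5 domain lists. CDH13 encodes the GPI-anchored T-cadherin and is 1174 kb long, and at least 98.3% of it lay inside the domains of each list. CDH26 was wholly inside in each list, though its start was only 3.42 kb from the border of the knockdown H3K9me3 domain, less than the 35 kb grid on which that list's borders lie. CDH23, which forms the tip links of hair cells together with PCDH15, was in the knockdown H3K9me3 list alone. CDH16 and CDH17, known from kidney and from liver and intestine, were in no domain list. None of the 5 had a promoter peak in any list.

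H3K4me3 was at the promoter of 7 of 10 protocadherins and 6 of 23 cadherins in the knockdown list. In the control list it was at 6 of 10 and 6 of 23. Over all genes the shares were 64.4% in the knockdown and 62.5% in the control list. The protocadherins were thus near the share of all genes and the cadherins below it, and this difference was not tested. PCDH7, PCDH9 and PCDH20 carried both marks in both lists while lying inside PML domains. PCDH9, a delta-1 protocadherin of the nervous system, had the family's strongest H3K4me3 promoter peak in the knockdown list (fold 59.7, rank 93.2%). The control list had 2 peaks at PCDH9. The stronger (fold 29.5, rank 90.5%) lay upstream of the start, and the one over the start had a fold of 9.32 (rank 46.5%). PCDH20 had a fold of 50.4 at rank 88.9% in the knockdown list and of 34.9 at rank 94.9% in the control list. PCDH7, a delta-1 protocadherin, had a broad H3K4me3 peak of 5184 bp (fold 40.5, rank 82.5%) in the knockdown list. In the control list it was 5031 bp wide (fold 15.9, rank 66.3%). The strongest H3K27ac promoter peak of PCDH9 had a fold of 15.6 in the knockdown and 6.91 in the control list (ranks 82.5% and 61.5%). The folds were 13.0 and 9.62 at PCDH7 (ranks 77.1% and 75.4%), and 7.88 and 6.95 at PCDH20 (ranks 57.5% and 61.8%).

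PCDH17, a delta-2 protocadherin, had H3K4me3 and no H3K27ac promoter peak. Its H3K4me3 folds were 16.9 (rank 58.7%) in the knockdown and 6.75 (rank 35.6%) in the control list. PCDH18 had folds of 15.3 (rank 56.4%) in the knockdown and 17.1 (rank 69.4%) in the control list. The 2 promoter peaks of PCDH1, a protocadherin of epithelia, had folds of 19.0 and 15.0 in the knockdown list. In the control list they were 4.99 and 7.32. The strongest PCDH1 peak ranked 61.4% from the bottom of the knockdown and 38.5% from the bottom of the control list. PCDH18 and PCDH1 were in no domain list. PCDH10 had a promoter peak (fold 6.76, 1060 bp) in the knockdown list only. PCDH8, PCDH12 and PCDH15 had none. PCDH12, an endothelial protocadherin, was also in no domain list, while PCDH15, the partner of CDH23 in tip links, was wholly inside PML and LMNB1 domains in both conditions. Its start was outside H3K9me3 domains, which covered 0% of its 1825 kb body in the knockdown and 51.4% in the control list.

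**Figure D4:**
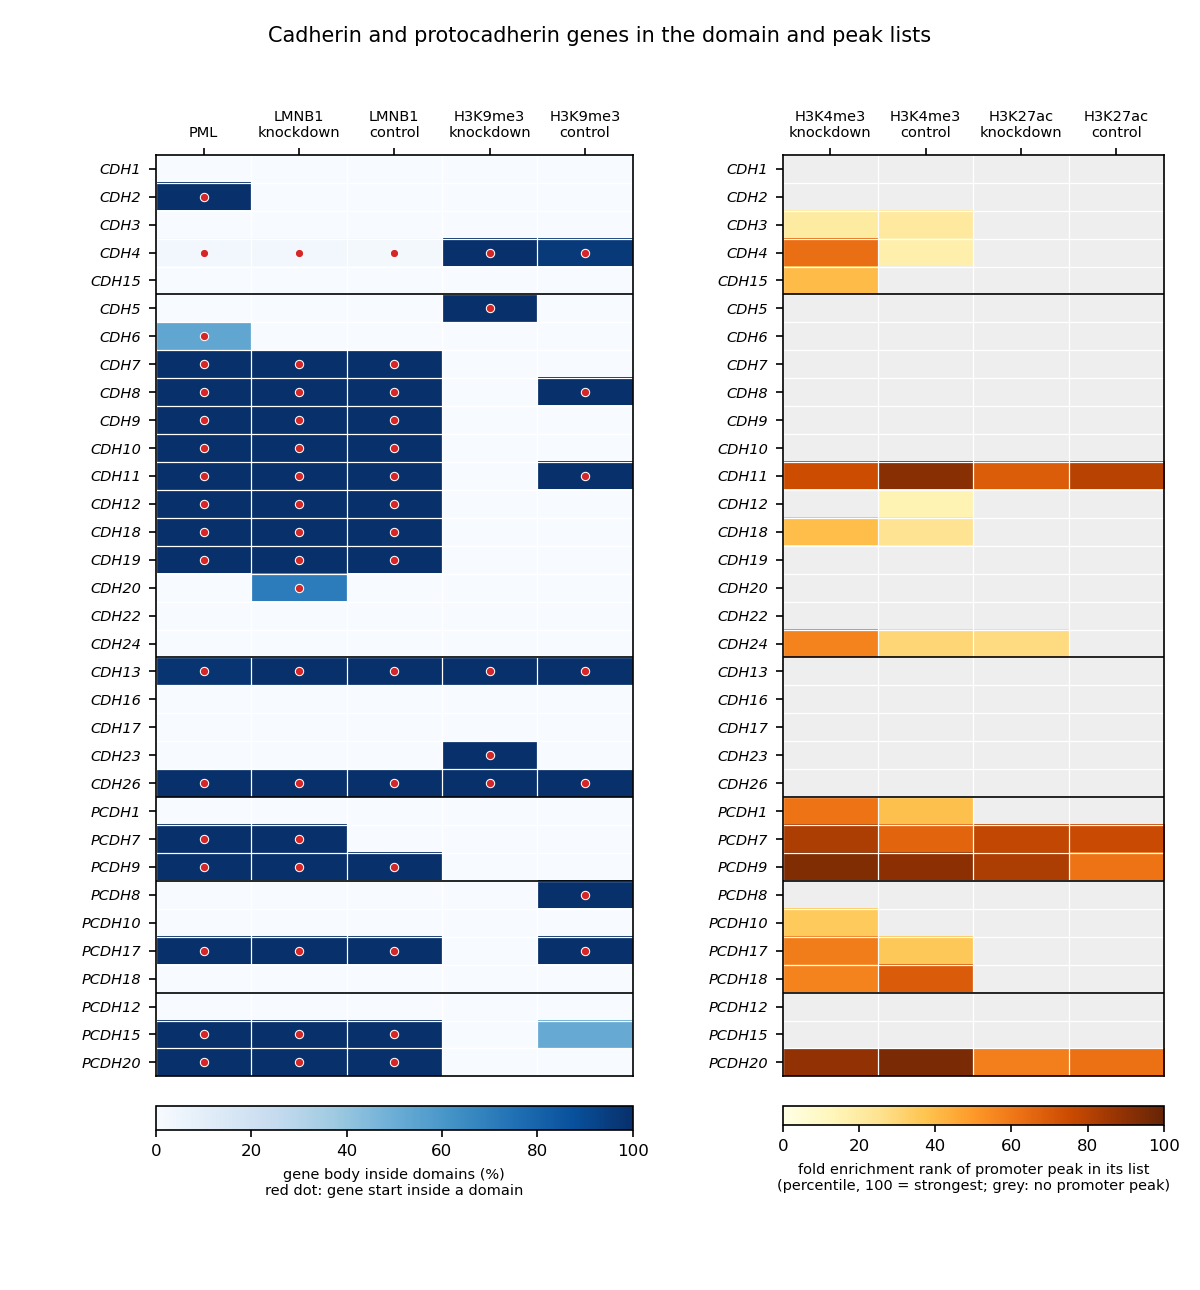
State of the 33 members in the 9 lists, ordered by role (type I, type II and other cadherins, then delta-1, delta-2 and other protocadherins, divided by black lines). The left panel gives the share of the gene body inside domains as shades of blue with a red dot where the start is inside, and the right panel gives the rank of the strongest promoter peak within its list (percentile, 100 the strongest), grey where there was no promoter peak. The 4 genes marked in all 4 peak columns, CDH11, PCDH7, PCDH9 and PCDH20, also have dots in the PML column.

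Promoter marks at members inside PML domains were read against all genes inside them. Of the 18 members, 7 in the knockdown and 8 in the control list had H3K4me3, where 43.5% and 42.7% of all 2612 genes starting in PML domains did. H3K27ac was at 4 of the 18 in each list, beside 35.6% and 35.1%. Outside PML domains, 6 of 15 members in the knockdown and 4 of 15 in the control list had H3K4me3, beside 67.7% and 65.6% of genes, and 1 and 0 had H3K27ac, beside 57.2% and 54.0%. For H3K4me3, the members' shares were thus near those of all genes inside PML domains and below them outside; the difference was not tested. The members' H3K4me3 promoter peaks had a median rank of 58.7% in the knockdown and 37.1% in the control list, while over all promoters with a peak the medians were 78.5% and 72.6%.

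**Figure D5:**
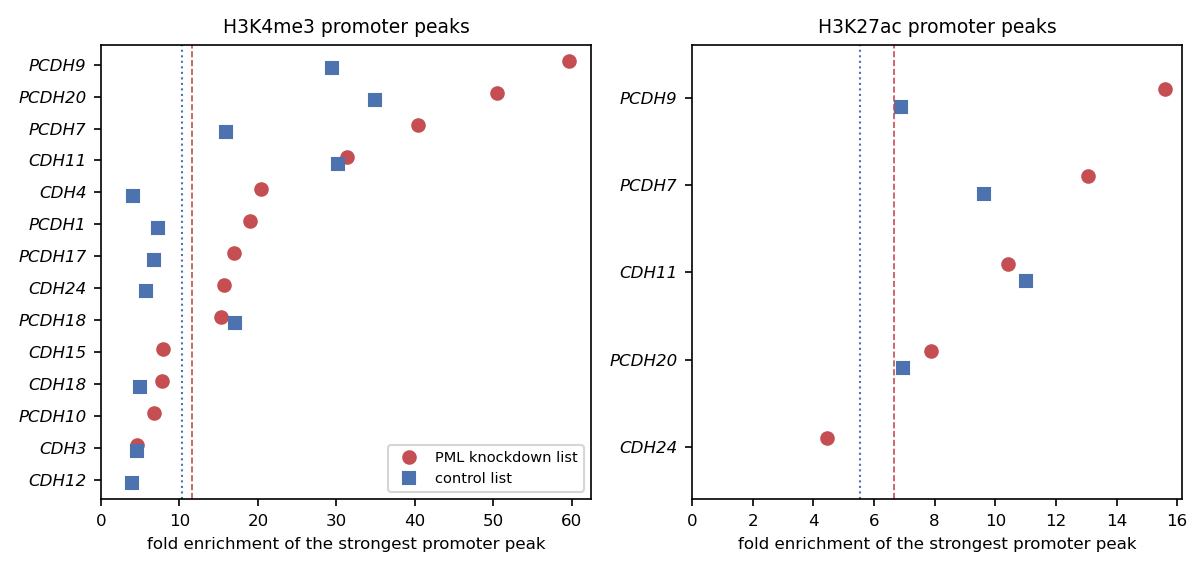
Fold enrichment of the strongest promoter peak (x axis) of H3K4me3 (left) and H3K27ac (right) at each member with a peak in the knockdown list (red circles) or the control list (blue squares), with the median of all autosomal peaks of the list as a dashed red (knockdown) or dotted blue (control) line. PCDH9, PCDH20, PCDH7 and CDH11 lie furthest right for H3K4me3 in the knockdown list; values of the 2 lists are not on a common scale.

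CpG-rich promoters of the family carried H3K4me3 in under 50% of cases. Of the 19 members with an observed-to-expected CpG ratio of at least 0.6 within 1 kb of the start, 9 in the knockdown and 8 in the control list carried H3K4me3, beside 86.6% and 84.7% of all genes with such promoters. Below 0.6, 4 of 14 members did in each list, beside 34.9% and 33.1% of genes. CDH2, at 0.91, had the highest ratio of the family and no H3K4me3 peak, and CDH19, at 0.25, had none either. PCDH20 had a ratio of 0.37 and a strong peak.

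The promoters of 6 members inside PML domains are printed to set this beside the letters. The sequences are from RefSeq (GRCh38.p14), which holds a window for 20 members and, at the canonical start, for 18, and run from 250 bases before to 50 bases after the start, 5′ to 3′ on the gene's strand, with CpG dinucleotides in capitals. PCDH9, PCDH7 and PCDH17 carried H3K4me3 in both lists, CDH12 in the control list alone, and CDH2 and CDH19 in neither.
PCDH9 (chr13:67230287-67230586, minus strand): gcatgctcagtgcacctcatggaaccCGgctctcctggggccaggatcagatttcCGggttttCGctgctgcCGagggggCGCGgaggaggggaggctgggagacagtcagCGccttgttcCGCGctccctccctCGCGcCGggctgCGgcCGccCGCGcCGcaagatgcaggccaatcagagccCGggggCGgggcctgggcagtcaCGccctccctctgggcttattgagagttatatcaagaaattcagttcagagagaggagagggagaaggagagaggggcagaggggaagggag
PCDH7 (chr4:30720119-30720418, plus strand): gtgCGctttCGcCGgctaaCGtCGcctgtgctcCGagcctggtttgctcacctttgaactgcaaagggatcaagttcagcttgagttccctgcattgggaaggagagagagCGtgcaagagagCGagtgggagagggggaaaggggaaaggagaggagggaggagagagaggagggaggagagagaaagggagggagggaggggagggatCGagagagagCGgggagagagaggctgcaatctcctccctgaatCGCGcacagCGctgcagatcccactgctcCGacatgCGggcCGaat
PCDH17 (chr13:57631494-57631793, plus strand): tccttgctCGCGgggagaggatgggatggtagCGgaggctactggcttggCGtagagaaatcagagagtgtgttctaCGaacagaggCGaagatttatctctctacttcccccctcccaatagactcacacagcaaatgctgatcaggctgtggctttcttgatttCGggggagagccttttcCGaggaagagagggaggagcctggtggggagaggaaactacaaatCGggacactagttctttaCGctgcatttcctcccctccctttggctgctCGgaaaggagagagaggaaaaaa
CDH12 (chr5:22853295-22853594, minus strand): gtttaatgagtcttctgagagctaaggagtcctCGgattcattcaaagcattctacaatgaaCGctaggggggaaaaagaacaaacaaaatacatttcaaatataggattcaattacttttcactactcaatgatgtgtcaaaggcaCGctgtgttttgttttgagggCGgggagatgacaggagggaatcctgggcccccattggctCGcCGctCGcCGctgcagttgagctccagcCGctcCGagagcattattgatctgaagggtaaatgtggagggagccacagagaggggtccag
CDH2 (chr18:28177081-28177380, minus strand): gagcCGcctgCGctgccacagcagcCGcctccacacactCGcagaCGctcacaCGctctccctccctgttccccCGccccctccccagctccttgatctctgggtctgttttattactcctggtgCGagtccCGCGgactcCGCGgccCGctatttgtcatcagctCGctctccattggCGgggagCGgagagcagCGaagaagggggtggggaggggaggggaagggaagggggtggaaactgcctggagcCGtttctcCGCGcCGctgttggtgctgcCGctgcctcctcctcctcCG
CDH19 (chr18:66604041-66604340, minus strand): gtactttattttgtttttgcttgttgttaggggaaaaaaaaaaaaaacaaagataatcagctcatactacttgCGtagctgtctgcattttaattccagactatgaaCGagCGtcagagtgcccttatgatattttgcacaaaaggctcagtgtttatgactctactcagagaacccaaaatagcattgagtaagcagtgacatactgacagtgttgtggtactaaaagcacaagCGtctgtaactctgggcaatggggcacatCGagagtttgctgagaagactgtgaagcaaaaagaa

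In these windows CpG was found 20 times at PCDH9, 16 times at PCDH7, 11 times at PCDH17, 10 times at CDH12, 23 times at CDH2 and 5 times at CDH19. The window of CDH2, which had no promoter peak, holds more CpG than those of PCDH9 and PCDH7, which had H3K4me3 promoter peaks in both lists. The median was 12.5 over the 18 members and 24 over 13888 autosomal protein-coding promoters with a window at the canonical start. The E-box letters CACCTG, or CAGGTG on the other strand, by which SNAI and ZEB repressors are known to bind, were in the window of 1 of the 18 (PCDH15) and in 19.6% of all windows. CDH1, whose repression these factors are known for, and CDH11 were not among the 18 and were not searched.

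Between knockdown and control, the domain state differed at 8 members and the promoter state at 4 others, and at 21 members neither differed. The same pooled shares over all genes were not computed, so these counts have no background beside them. No member that started in a control LMNB1 domain was outside the knockdown list (0 of 15), beside 16.5% of the 2465 genes in control LMNB1 domains. The 15 starts lay in 8 control domains, so they are not 15 separate observations. Their median distance to the border was 1746 kb, against 462 kb for all genes inside control LMNB1 domains. PCDH7 and CDH20 were inside in the knockdown list only, 2 of the 18 members outside in control, beside 0.721% of genes outside. At PCDH7 (ENSG00000169851.16, chromosome 4, start at 30720369, plus strand), 100% of the 426 kb gene body was in an LMNB1 domain in the knockdown list (27148001 to 34782000) and 0% in the control list, where the nearest domain border lay 1.37 kb from the start, less than the 17 kb grid of that list. Its H3K4me3 and H3K27ac promoter peaks were present in both lists, and H3K27ac peaks over the gene body numbered 4 in the knockdown and 9 in the control list. At CDH20, 70.4% of the 222 kb body was in a 792 kb LMNB1 domain (60698001 to 61490000 on chromosome 18, score 19.9) with the knockdown and 0% in control cells, with the nearest control border 14.4 kb from the start, again less than that grid. That score is low beside the median of 48.8 of the knockdown LMNB1 list.

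On chromosome 5 the LMNB1 lists differed in extent while the state of the starts did not. CDH18, CDH12, CDH10 and CDH9 lay in a single domain in the knockdown list (18480001 to 27324000), against a first domain from 18479001 to 25075000 with CDH18, CDH12 and CDH10 and a second from 26384001 to 28594000 with CDH9 in the control list.

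For H3K9me3, 6 members were on different sides in the knockdown and control lists. CDH8, CDH11, PCDH8 and PCDH17 were outside knockdown domains and inside control domains, 4 of the 7 members inside in control, beside 47.9% of the 1983 genes inside in control. CDH5, the endothelial cadherin gene, and CDH23 were inside knockdown and outside control domains, 2 of the 26 outside in control, beside 3.7% of genes. CDH4, CDH13 and CDH26 were inside in both. The 4 genes outside knockdown domains came from 2 control domains, CDH8 and CDH11 from one on chromosome 16 (58765001 to 66309000) and PCDH8 and PCDH17 from one on chromosome 13 (52716001 to 58765000), so they amount to 2 changes and not 4. Each of the 4 had 0% of its body in knockdown and 100% in control H3K9me3 domains. The nearest knockdown domain began 223 kb from CDH11 but 3.31 Mb from CDH8, 28.2 Mb from PCDH17 and 23.4 Mb from PCDH8. The one nearest to CDH11 (65345001 to 66500000) was the domain that held CDH5. It overlapped the control domain of CDH8 and CDH11, from which CDH5 started 57.7 kb away, so these changes concern 1 region.

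Regional GC content is given for these genes by their H3K9me3 state, and the same values over all genes were not computed. The genes are few and some share domains, so no pattern is read from them. Regional GC was 37.2% at CDH8, 39.2% at CDH11, 34.5% at PCDH17 and 42.4% at PCDH8, the genes inside in control alone. It was 47.8% at CDH4, 43.1% at CDH26 and 42.2% at CDH13, inside in both lists, and 50.9% at CDH23 and 47.7% at CDH5, inside in knockdown alone. Whether GC content plays a part was not tested. The H3K9me3 lists also differ in scale, with median domain scores of 15.0 in the knockdown and 27.8 in the control list and grids of 35 kb and 23 kb; the domains of CDH5 and CDH23 had scores of 16.3 and 15.7. CDH11 kept both promoter marks, and PCDH17 kept H3K4me3, in the knockdown lists, and CDH8 and PCDH8 had no promoter peak in either condition.

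Promoter state differed at CDH15 and PCDH10, with H3K4me3 in the knockdown list only (2 of 33, beside 1.79% of genes), at CDH12, with H3K4me3 in the control list only (1 of 33, beside 0.0942%), and at CDH24, with H3K27ac in the knockdown list only (1 of 33, beside 3.25%). No member had H3K27ac in the control list only, beside 0.67% of genes. CDH12 was not in the control list with -log10 q of at least 5, and PCDH10 was marked in both lists when 2500 bp on either side were counted. The strongest peaks concerned ranked between 15.0% and 39.9% from the bottom of their lists.

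The partners and relatives of cadherins were scored by the same rules. Of 9 catenins, which link cadherins to actin and to each other, 7 had H3K4me3 at the promoter in each list. Over all genes the shares were 64.4% in the knockdown and 62.5% in the control list. CTNNA1, CTNNB1, CTNND1 and PKP4 had H3K4me3 and H3K27ac at the promoter in both conditions and were in no domain. CTNNA2, the neural alpha-catenin gene, started in PML domains, in both LMNB1 lists and in the control H3K9me3 list. So did FAT3 among 18 other members of the superfamily. CTNNA2 had a weak H3K4me3 promoter peak in both lists (folds of 3.58 in the knockdown and 2.63 in the control list), and FAT3 had none. CTNND2 was in both LMNB1 lists and the control H3K9me3 list, and CTNNA3 in both LMNB1 lists, all without PML. CLSTN2 was in the LMNB1 and H3K9me3 lists of both conditions, and CDHR1 was in PML and control LMNB1 domains and outside the knockdown LMNB1 list. CLSTN3 had H3K27ac in the knockdown list only.

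All 7 desmosomal cadherins, whose genes lie together on chromosome 18 beside the PML domain of CDH2, were outside every domain list, and DSG2 and DSC2 had H3K4me3 in both conditions. The 53 clustered protocadherins were likewise in no domain list. Being clustered, they are not 53 separate observations. H3K4me3 was at 12 of their promoters in the knockdown and 10 in the control list, beside 64.4% and 62.5% of all genes. Of 6 genes for repressors of CDH1, SNAI1, SNAI2, ZEB1, ZEB2 and TCF3 had H3K4me3 in both lists. TWIST1 had none and was in PML domains and control LMNB1 domains, outside the knockdown LMNB1 list. ZEB2 was in PML domains and both LMNB1 lists, with H3K27ac in the control list only, and SNAI2 was in the knockdown H3K9me3 list only.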

How the data were processed

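The submitters' processing notes give the build hg38 and, with no role or order, deepTools, MACS2 2.2.7.1, Picard 1.104 and BWA 0.7.12-r1039; their use is not given in these sources. Each domain in the deposited domain files has a score whose scale is not stated; the caller is given only in the file names, as EDD. Each peak in the deposited peak files has a fold enrichment, a ratio, and a -log10 q-value, in the MACS2 layout. Peak names in those files show that replicates 1 and 2 were combined; for domains this is not stated. Taking pml and ct in the peak names for PML knockdown and control is an assumption. No depth is known and no counting interval can be given.

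Starts were matched to domains, and promoters (1 kb on either side of the start) to peaks with an overlap of at least 1 bp, on chromosomes 1 to 22, with Python 3.11.15, numpy 2.4.6 and pandas 2.3.3 and GENCODE 44. Promoters marked in a single list held no peak of the other list, and their own peaks overlapped none. Calls were tested on simulated lists and checked with bedtools 2.31.1, with 0 differences over the 9 lists. Percentages of all genes include the family. The members, roles and partner lists were chosen with earlier results of these data known. Named genes were all members by state, with values for those in PML domains, those whose state differed, those with promoter peaks and CDH1, and partners in a domain or with a differing state; partners named for promoter peaks alone were chosen after their values were seen. The libraries of H3K27me3 and the inputs were not analysed here. With 1 list per condition, no test was possible.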

Additional observations from a re-analysis of the deposited data

How the results depend on the processing

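Alternatives were a gene body at least 50% inside, any annotated transcript start, domains of at least 500 kb, joining of domains under 100 kb apart, promoters of 500 or 2500 bp on either side, -log10 q of at least 5, and equal numbers of peaks from both lists. Of 76 recomputed counts, 68 stayed within 1.5 times. With 2500 bp on either side, H3K27ac was at 10 members in the knockdown and 8 in the control list, at 2 in the knockdown list only (PCDH8 and CDH24), and H3K4me3 was at 1 in the knockdown list only (CDH15). With any annotated start, H3K27ac was at 8 members in the knockdown list, among them CDH1 and CDH3, and at 2 in the knockdown list only (CDH3 and CDH24), and H3K4me3 was at 0 in the control list only, as it was with -log10 q of at least 5. With the gene body rule CDH4 was in no PML or LMNB1 domain, and PCDH15 was in the control H3K9me3 list and not in the knockdown one, as it also was with any annotated start, beside its place in PML and both LMNB1 lists. No paired analysis was possible because the lists hold no value per replicate. Peaks and domains below the authors' thresholds, and the depth behind them, are unknown, which limits each statement that a gene was in a list of 1 condition.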

Other observations

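Peaks within gene bodies, which may belong to overlapping genes, were not all at promoters. The knockdown lists are longer, with 26997 H3K4me3 and 42436 H3K27ac autosomal peaks, against 21550 and 41198 in the control lists, and no share over all genes was computed. H3K4me3 peaks overlapping the 33 gene bodies numbered 43 in the knockdown and 32 in the control list, with more in the knockdown list at 10 members, fewer at 3 and equal numbers at 20. H3K27ac peaks numbered 69 and 66, with more in the knockdown list at 8 members, fewer at 7 and equal numbers at 18. CDH13, with no promoter peak, had 10 H3K27ac peaks in its body in the knockdown and 6 in the control list, and CDH4 had 10 and 7. CDH8, also without a promoter peak, had 3 and 4. CDH7, CDH9 and CDH10 had no peak of either mark in the body in any of the 4 lists.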
